A study of Sus scrofa with 6 samples.

Results

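The genes described here belong to the interferon response and to RNA sensing. They are the 9 genes DDX58, IFIH1, TLR3, MX1, MX2, ISG15, STAT2, IRF1 and IRF9, chosen by name, and each matched 1 of the 18007 genes of the expression table. RNA-seq was carried out on 3 lines of porcine embryonic fibroblasts (PEF5, PEF7 and PEF8) and on the 3 lines of doxycycline-dependent porcine induced pluripotent stem cells (piPSC5, piPSC7 and piPSC8) that were made from them. The PEFs were grown from the ear tip of embryos of embryonic day 90 from a Large White boar and a Meishan sow, and the piPSCs were obtained by introducing Oct4, Sox2, Klf4 and cMyc. The piPSCs were kept on feeder cells from mouse, and each line was sequenced once, so the replicates of a group are different lines.

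Cells recognise viral RNA with cytoplasmic helicases such as DDX58 (RIG-I) and IFIH1 (MDA5) and with the endosomal receptor TLR3. These sensors signal through adaptors and kinases to interferon regulatory factors, which switch on type I interferon genes. Secreted interferon then binds its receptor, and the kinases JAK1 and TYK2 activate a complex with STAT2 and IRF9 that turns on interferon-stimulated genes such as MX1, MX2 and ISG15. Many of the sensors are themselves interferon-stimulated, and pluripotent stem cells are known for a weak interferon response.

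Expression was deposited as FPKM, the fragments per kilobase of transcript and per 1000000 fragments of the library. The values were whole multiples of 1 fragment, so the fragments of each gene could be recovered as the smallest whole counts that fit every library. For genes with few fragments these counts can be too low by a factor common to the libraries. The libraries held between 11010629 fragments (piPSC8) and 17836510 fragments (PEF5). Group differences were tested with limma on log2(FPKM + 1) over 12428 genes with a mean of at least 0.5 FPKM, and a gene was called when its adjusted p was under 0.05 and the change at least 2-fold. On this scale the change of low genes is understated. Fold changes are given for piPSCs against PEFs, so negative values are lower in piPSCs.

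Line 8 differed from the other lines, and many of the values below moved when PEF8 was left out. The cells are described as male, while fragments of the Y-linked gene DDX3Y were found only in PEF8 (3439 fragments) and piPSC8 (4207 fragments), and were at 0 in PEF5, PEF7, piPSC5 and piPSC7. This difference and line 8 cannot be told apart. PEF8 also had the highest level among the PEFs for every 1 of the 9 genes, as it had for 36.8% of all tested genes. The results of the 9 genes are therefore given with and without PEF8.

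The labels were checked against marker genes. All 8 fibroblast markers were called lower in piPSCs, and their FPKM summed to 6642, 8187 and 5745 in PEF5, PEF7 and PEF8 and to 419, 374 and 210 in piPSC5, piPSC7 and piPSC8. The most abundant was VIM in PEF5, piPSC5 and piPSC7, COL1A1 in PEF7 and COL3A1 in PEF8 and piPSC8. PEF8 stood apart from the other PEFs within these sums. VIM was at 2413, 2196 and 908 FPKM in PEF5, PEF7 and PEF8, THY1 at 201, 253 and 73.7 FPKM, DCN at 50.2, 98.8 and 519 FPKM, and COL3A1 at 496, 297 and 1640.0 FPKM. The part of this difference in the results was not tested. Of 7 pluripotency markers in the table, 5 stayed under 1 FPKM in every library, NANOG, SALL4 and ESRRB among them, while LIN28B reached 8.90 FPKM in piPSC8 and SOX2 3.01 FPKM in piPSC5. Neither passed the test, although for both genes every piPSC library was above every PEF library. SOX2 had 0, 1 and 2 fragments in PEF5, PEF7 and PEF8 and 288, 188 and 9 in piPSC5, piPSC7 and piPSC8. LIN28B had 1, 1 and 3 fragments in the PEFs and 204, 18 and 529 in the piPSCs, in the same order. Most of the 7 pluripotency markers were thus absent or low in the cells labelled piPSC. POU5F1 and LIN28A were not analysed here.

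Markers of other cell types were low. The 9 leukocyte and macrophage markers summed to 13.9, 25.7 and 21.0 FPKM in PEF5, PEF7 and PEF8 and to 4.22, 4.30 and 5.00 FPKM in piPSC5, piPSC7 and piPSC8. Most of the PEF signal was CD14, at 9.20, 21.9 and 13.1 FPKM, whereas CSF1R, ITGAM and AIF1 stayed under 1 FPKM in all 6 libraries. PEF8 was the highest PEF for 7 of the 9, SPI1, CD68 and TYROBP among them, and not for CD14 and FCER1G, the latter at 0.408, 0.311 and 0.137 FPKM in PEF5, PEF7 and PEF8. SPI1 was at 2.53, 1.62 and 3.49 FPKM in PEF5, PEF7 and PEF8 and up to 2.40 FPKM in the piPSCs, CD68 at 1.11, 0.786 and 2.29 FPKM and up to 2.71 FPKM, and TYROBP at 0.401, 0.856 and 1.30 FPKM and 0 in every piPSC library. Of the 5 endothelial markers, PECAM1 was higher in PEF8 (2.57 FPKM) than in PEF5 (0.566 FPKM) and PEF7 (0.50 FPKM), while CDH5 and KDR were at 0 in PEF8. The endothelial markers summed to 0.581, 0.513 and 2.59 FPKM in PEF5, PEF7 and PEF8, and to 0.380, 1.15 and 0.0382 FPKM in piPSC5, piPSC7 and piPSC8. The 4 keratinocyte markers, led by KRT10, summed to between 3.04 FPKM (PEF5) and 9.09 FPKM (piPSC7), and TP63 stayed under 1 FPKM throughout. The 4 cartilage markers summed to between 0.32 FPKM (piPSC8) and 4.58 FPKM (PEF7). They were led by SOX9 in the PEFs and by MATN3 in the piPSCs, where MATN3 reached 4.202 FPKM in piPSC7. SOX9 was at 2.15, 4.50 and 0.501 FPKM in PEF5, PEF7 and PEF8 and at 0.13, 0 and 0 FPKM in piPSC5, piPSC7 and piPSC8. It was called lower in piPSCs, at -1.51 (limma adjusted p = 0.0342), and at -1.999 without PEF8 (adjusted p = 0.00689, up to 0.0941 over the alternatives). The call of SOX9 was lost without any 1 of the other 5 libraries (adjusted p = 0.0941 without PEF5, 0.0791 without PEF7, 0.0767 without piPSC5, 0.0766 without piPSC7 and 0.0698 without piPSC8), with no filter on low values (0.0516) and with quantile normalization (0.0528). CD14 was also called lower, at -3.64 (limma adjusted p = 0.000435), and in all 16 alternatives. The part of such cells in the results was not tested.

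The 3 RNA sensors among the 9 genes were highest in PEF8, and none of them passed the test between the groups. DDX58 (ENSSSCG00000030408, chr10:33866114-33967141, plus strand of Sscrofa11.1), the helicase that senses RNA with a 5′ triphosphate, was at 5.07, 2.06 and 50.6 FPKM in PEF5, PEF7 and PEF8, and at 4.58, 5.44 and 4.88 FPKM in piPSC5, piPSC7 and piPSC8. In bulk RNA, fewer cells with a transcript and less of it per cell cannot be told apart. PEF8 was alone at a high level, PEF7 lay below every piPSC library, and the groups overlapped. The log2 fold change was -0.73, with an SE of 0.97 (limma adjusted p = 0.551), and without PEF8 it was 0.47 with the opposite sign (adjusted p = 0.301, between 0.195 and 0.664 over the alternatives). The piPSCs were close to each other, at 4.96 ± 0.437 FPKM (SD, n = 3). The extent of DDX58 in the table also covers TOPORS on the same strand and ACO1 on the opposite strand, so its fragments may be shared with those genes.

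IFIH1 (ENSSSCG00000015897, chr15:68928254-68985492, minus strand), the helicase that senses long double-stranded RNA, was at 1.66, 0.905 and 7.32 FPKM in PEF5, PEF7 and PEF8, and at 0.410, 0.593 and 0.373 FPKM in piPSC5, piPSC7 and piPSC8. Every PEF library was above every piPSC library, but PEF8 was 4.40 times PEF5 and 8.09 times PEF7. The log2 fold change was -1.26, with an SE of 0.54 (limma adjusted p = 0.0905), and -0.63 without PEF8 (adjusted p = 0.108, between 0.0465 and 0.180 over the alternatives). Of the alternatives, the gene was called only when PEF7 was left out, at -1.69 (adjusted p = 0.0465).

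TLR3 (ENSSSCG00000015801, chr15:46966079-46978023, plus strand), the receptor for double-stranded RNA in endosomes, was at 2.69, 2.77 and 7.82 FPKM in PEF5, PEF7 and PEF8, and at 0.561, 1.71 and 5.31 FPKM in piPSC5, piPSC7 and piPSC8. Here piPSC8 was above PEF5 and PEF7, so line 8 was the highest of both groups. The log2 fold change of -0.73 (SE 0.58) did not pass the test (limma adjusted p = 0.323). It was -0.32 without PEF8 (adjusted p = 0.683, from 0.0740 to 0.721 over the alternatives). Without piPSC8 it was -1.27 (adjusted p = 0.0740), and without both libraries of line 8 it was -0.86 (adjusted p = 0.0981). Without piPSC5 it was -0.26 (adjusted p = 0.721).

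Of the 19 genes listed as RNA sensors and their partners, 15 could be tested, 6 were called lower in piPSCs and 0 higher, and 9 were not called. Of all tested genes, 16.7% were called lower and 20.2% higher, and 16% lower without PEF8, where 5 of 14 of the list were. The median log2 fold change of the list was -1.26, and -0.86 without PEF8, beside 0.20 and 0.25 for all tested genes. TICAM1, the adaptor of TLR3, changed most. It was at 15.4, 18.8 and 13.4 FPKM in PEF5, PEF7 and PEF8 and at 0.188, 0.166 and 0.796 FPKM in piPSC5, piPSC7 and piPSC8, with a log2 fold change of -3.63, with an SE of 0.25 (limma adjusted p = 0.000250). For TICAM1 the PEF lines did not separate, and PEF8 was the lowest of them. DHX58 (LGP2), a regulator of the other helicases, fell by 2.05 on the log2 scale (limma adjusted p = 0.0454), and its call was lost with the line as a block (adjusted p = 0.0536, between 0.0123 and 0.106 over the alternatives). The call of DHX58 was also lost without PEF5 (0.0705), piPSC5 (0.106), piPSC7 (0.0898) or piPSC8 (0.0887), with no filter on low values (0.0779), with quantile normalization (0.0527) and with voom (0.0537). Without PEF8 it was kept, at -1.21 (adjusted p = 0.0214). TRIM25, a ubiquitin ligase that acts on RIG-I, fell by 2.00 (adjusted p = 0.0199), and its call was lost with the block (adjusted p = 0.0554) and without PEF8 (adjusted p = 0.0563), with a range over the alternatives from 0.0104. MAVS, the adaptor of both helicases on mitochondria, was at 10.6, 10.5 and 15.5 FPKM in the PEFs and at 5.42, 5.87 and 6.02 FPKM in the piPSCs. Its log2 fold change of -0.95 (limma adjusted p = 0.00866) was under the 2-fold threshold, but MAVS was called lower in 7 of the 16 alternatives. These were the fits without PEF5 and without PEF7, at -1.03 each, the pseudocount of 0.1 (-1.05), quantile normalization (-1.04), the median of ratios (-1.18), equal sums (-1.32) and voom (-1.06). It was -0.77 without PEF8. EIF2AK2 (PKR), a kinase that binds double-stranded RNA and blocks translation, did not pass (-0.43, limma adjusted p = 0.497), and its value was 0.09 without PEF8 (adjusted p = 0.857, from 0.107 over the alternatives).

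**Figure D1:**
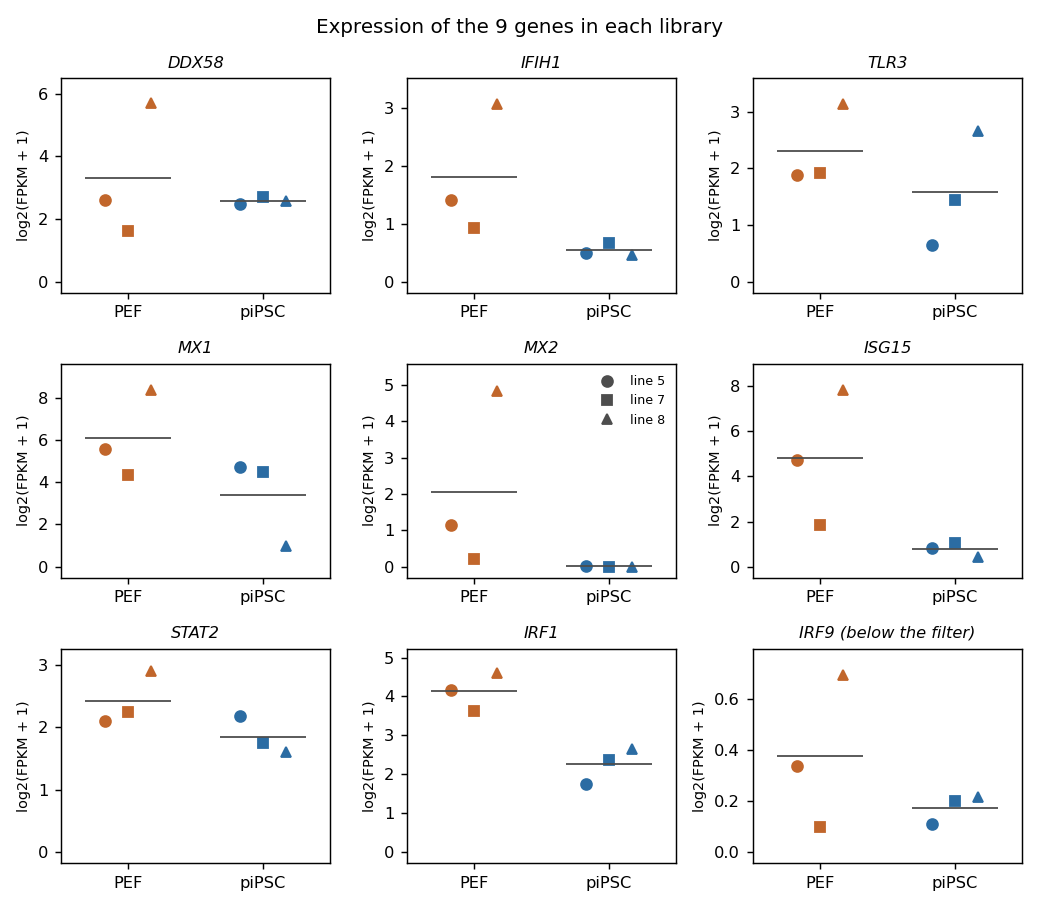
Expression of the 9 genes in each library, as log2(FPKM + 1) on the vertical axis, with PEFs in orange, piPSCs in blue, a marker shape for each line and a bar at the group mean. PEF8 lies above the other PEFs in every panel, by the widest margin for MX2, and the PEFs lie above the piPSCs without overlap for IFIH1, MX2, ISG15 and IRF1.

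The antiviral effectors MX1, MX2 and ISG15 were at their highest in PEF8, and MX2 and ISG15 were near 0 in piPSCs. ISG15 (ENSSSCG00000040575, chr6:63362889-63365398, plus strand) encodes a ubiquitin-like protein that is attached to other proteins after interferon. It was at 25.2, 2.64 and 225 FPKM in PEF5, PEF7 and PEF8, and at 0.788, 1.08 and 0.345 FPKM in piPSC5, piPSC7 and piPSC8, which are 25, 27 and 8 fragments. Every PEF was above every piPSC, with 32.0 times the level of piPSC5 in PEF5, 2.45 times that of piPSC7 in PEF7 and 652 times that of piPSC8 in PEF8. ISG15 fell by 4.03 on the log2 scale, with an SE of 1.35 (limma adjusted p = 0.0439). This call was lost with the line as a block (adjusted p = 0.0570), and without PEF8 the value was -2.52 (adjusted p = 0.0549, between 0.00759 and 0.276 over the alternatives). It was also lost without PEF5 (adjusted p = 0.102), piPSC5 (0.10), piPSC7 (0.0841) or piPSC8 (0.0943), with no filter on low values (0.0785) and with voom on fragments (0.276), and kept without PEF7.

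MX2 (ENSSSCG00000012076, chr13:204798302-204831975, plus strand), a dynamin-like GTPase that acts against viruses, was at 1.23, 0.155 and 27.6 FPKM in PEF5, PEF7 and PEF8, from 119, 14 and 2260 fragments. In the piPSCs it had 1 fragment in piPSC5 (0.0123 FPKM) and 0 in piPSC7 and piPSC8. Over each group this was 2393 fragments against 1, a ratio of 1828 per fragment sequenced with a 95% exact counting interval from 328 to 72213. Without PEF8 the 133 fragments of PEF5 and PEF7 gave a ratio of 146, with an interval from 25.8 to 5814. These intervals cover counting error and not the spread between lines. The limma log2 fold change of MX2 was -2.06 (SE 1.11, adjusted p = 0.161), and without PEF8 its mean was under 0.5 FPKM, so it passed the filter through PEF8.

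MX1 (ENSSSCG00000012077, chr13:204847561-204868477, plus strand), the neighbouring paralogue of MX2, had the highest mean FPKM of the 9 genes in both groups. It was at 46.0, 19.1 and 331 FPKM in PEF5, PEF7 and PEF8, and at 25.2, 21.6 and 0.960 FPKM in piPSC5, piPSC7 and piPSC8. The levels of piPSC5 and piPSC7 lay between those of PEF7 and PEF5, whereas piPSC8 had 21 fragments and was the lowest library. PEF8 was 344 times piPSC8, so line 8 held both the highest and the lowest value. The log2 fold change was -2.69, with an SE of 1.33 (limma adjusted p = 0.131), and -1.55 without PEF8 (adjusted p = 0.332, between 0.0912 and 0.548 over the alternatives). It was -1.48 without piPSC8 (adjusted p = 0.309), and -0.34 without both libraries of line 8 (adjusted p = 0.548), a fit chosen after the values were seen. Fragments of MX1 and MX2 could be shared where their sequences are alike, and how the counting split them is not given in the sources used here.

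Of the 43 interferon-stimulated effectors listed, 36 were in the table and 35 could be tested, 3 of which are MX1, MX2 and ISG15. Of the 35, 11 were called lower in piPSCs, 0 were called higher and 24 were not called, beside the 16.7% called lower among all tested genes. Their median log2 fold change was -1.56, and -1.06 for the 28 tested without PEF8. Over the 35 it was -1.63 with RSAD2 and CMPK2, which were at 0 in every piPSC library, set to their bound. The bound is a ratio of fragments pooled over each group, and the other genes kept their change in log2(FPKM + 1). The median of -1.63 thus mixes unlike measures. RSAD2 and CMPK2 were expressed in PEFs, with 429 and 1015 fragments. They were at least 109-fold and at least 258-fold lower in piPSCs against a floor of 3 fragments over the group. Without PEF8 these bounds were 34.4-fold and 46.1-fold. By library, RSAD2 had 90, 4 and 335 fragments in PEF5, PEF7 and PEF8, and CMPK2 had 82, 44 and 889. RSAD2 was thus close to the limit of detection in PEF7. IFI6, an interferon-induced mitochondrial protein, was at 43.8, 12.5 and 404 FPKM in the PEFs and at 1.11, 3.58 and 1.38 FPKM in the piPSCs, a log2 fold change of -4.46, with an SE of 1.16 (limma adjusted p = 0.0180). Without PEF8 it was still called, at -3.11 (adjusted p = 0.0120). It lost its call without piPSC5 (adjusted p = 0.0587) and with voom (0.174), with a lowest adjusted p of 0.00879 over the alternatives. UBE2L6, the enzyme that passes ISG15 on to its targets, fell by 4.43 (SE 0.57, adjusted p = 0.00143), from 27.6, 29.4 and 127 FPKM to 1.22, 1.54 and 0.976 FPKM, and by 3.72 without PEF8. Without PEF8, 11 of 28 tested effectors were called lower, beside 16% of all genes tested there, and 9 of these were also called with all libraries. The count moved to 21 without PEF7 and to 7 without piPSC5.

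**Figure D2:**
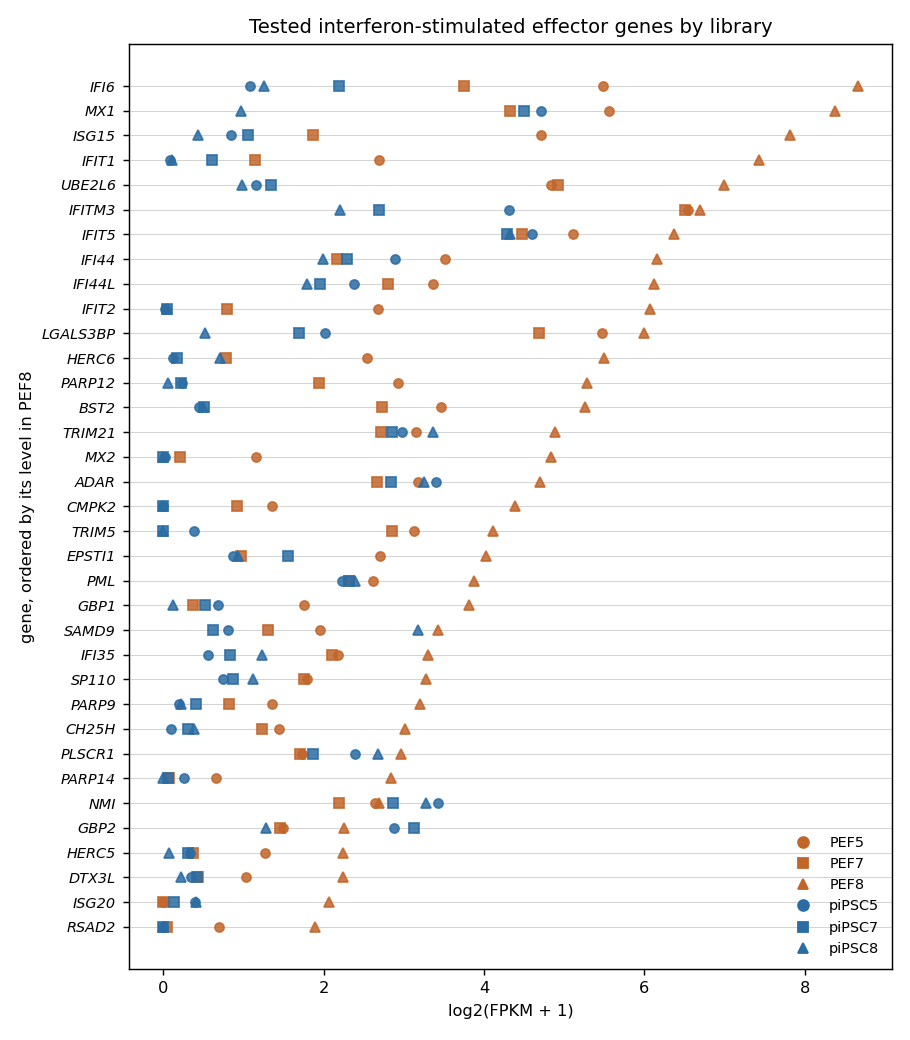
The 35 tested interferon-stimulated effectors by library, as log2(FPKM + 1) on the horizontal axis, ordered by their level in PEF8, with PEFs in orange, piPSCs in blue and a marker shape for each line. PEF8 is the highest PEF library for all 35 genes and at least 2-fold above both others for 29 of them, and 7 of the 35 passed the filter on low values only through PEF8.

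Among the transcription factors, IRF1 was lower in piPSCs in all 3 lines and STAT2 did not pass the test. IRF1 (ENSSSCG00000014277, chr2:134776124-134783819, minus strand), a factor induced by interferon gamma that binds the promoters of antiviral genes, was at 16.8, 11.4 and 23.4 FPKM in PEF5, PEF7 and PEF8, and at 2.35, 4.15 and 5.28 FPKM in piPSC5, piPSC7 and piPSC8. The groups were 17.2 ± 6.04 and 3.93 ± 1.48 FPKM (SD, n = 3) and did not overlap. PEF5 was 7.14 times piPSC5, PEF7 2.74 times piPSC7 and PEF8 4.44 times piPSC8. IRF1 fell by 1.88 on the log2 scale, with an SE of 0.34 (limma adjusted p = 0.00463), and by 1.64 without PEF8 (adjusted p = 0.0150). It was called in all 16 alternatives, with adjusted p between 0.00287 and 0.0187. In the table IRF1 overlaps RAD50 on the opposite strand, so some of its fragments may be shared with that gene.

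STAT2 (ENSSSCG00000000396, chr5:21733030-21751354, minus strand), which transmits the signal of the type I interferon receptor, was at 3.30, 3.73 and 6.46 FPKM in PEF5, PEF7 and PEF8, and at 3.51, 2.37 and 2.04 FPKM in piPSC5, piPSC7 and piPSC8. The groups overlapped, with piPSC5 above PEF5. The log2 fold change was -0.57, with an SE of 0.29 (limma adjusted p = 0.138, 95% interval from -1.26 to 0.12), and -0.33 without PEF8 (adjusted p = 0.348, from 0.0518 to 0.550 over the alternatives). IRF9 (ENSSSCG00000002002, chr7:75133696-75139230, minus strand), the DNA-binding partner of STAT2, was the lowest of the 9 genes in PEFs, with a mean under 0.5 FPKM, so it was not among the tested genes. It had 8, 2 and 16 fragments in PEF5, PEF7 and PEF8 (0.264, 0.0704 and 0.621 FPKM) and 2, 3 and 3 fragments in piPSC5, piPSC7 and piPSC8. With no filter on low values its log2 fold change was -0.20, with an SE of 0.15 (limma adjusted p = 0.366), and it had no value in the other fits. In the table STAT2 overlaps PAN2 and IRF9 overlaps REC8, each on the same strand, so their fragments are uncertain.

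The other genes of the signalling chain moved in both directions. Of 11 listed interferon receptors and JAK-STAT genes, 9 could be tested, 4 were called lower, 1 higher and 4 not called, beside 16.7% lower and 20.2% higher among all tested genes. Without piPSC5, 2 were called lower, and without PEF8 3 were. IFNGR2, a chain of the interferon gamma receptor, was at 32.6, 18.7 and 46.9 FPKM in PEF5, PEF7 and PEF8 and at 0.540, 1.51 and 1.14 FPKM in piPSC5, piPSC7 and piPSC8, a log2 fold change of -3.97, with an SE of 0.36 (limma adjusted p = 0.000488). The other chain, IFNGR1, fell by 1.04 (adjusted p = 0.00264). JAK1 fell by 1.15 (adjusted p = 0.00710), and without piPSC5 its change of -0.91 was under 2-fold. TYK2, the kinase bound to IFNAR1, was the 1 gene that rose, by 1.90 (SE 0.24, adjusted p = 0.00127), from 11.7, 9.07 and 7.84 FPKM to 36.9, 29.9 and 49.6 FPKM. IFNAR1, a chain of the type I receptor, did not pass at 0.25 (adjusted p = 0.505), nor did JAK2 at -0.50 (adjusted p = 0.112). IFNAR2 was not analysed here.

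Of 13 kinases and interferon regulatory factors, 6 could be tested and 2 were called, both lower, IKBKE and IRF1. Of all tested genes, 16.7% were called lower. IKBKE, a kinase that activates IRF3, was at 18.0, 13.1 and 13.1 FPKM in PEF5, PEF7 and PEF8 and at 1.68, 1.40 and 0.519 FPKM in the piPSCs, a log2 fold change of -2.86, with an SE of 0.28 (limma adjusted p = 0.000586). TBK1, the related kinase, was at 0.12 (adjusted p = 0.682). IRF3, the factor that starts interferon transcription, changed by -0.71 (adjusted p = 0.0130), under 2-fold except after rescaling to equal sums (-1.05). IRF7, which amplifies the response, was at 0.0359, 0 and 0.0845 FPKM in the PEFs and 0.0425, 0 and 0 FPKM in the piPSCs, and was not tested. Of the 4 tested genes of DNA sensing, TREX1, a nuclease that removes DNA from the cytoplasm, fell by 2.11 (adjusted p = 0.00395), and SAMHD1, which depletes nucleotides, rose by 2.2 (adjusted p = 0.00744). SAMHD1 was at 7.40, 5.54 and 21.7 FPKM in PEFs and at 51.6, 48.8 and 44.8 FPKM in piPSCs, a rise of 2.73 without PEF8. Of the 12 tested negative regulators, 2 were called, both lower, TNFAIP3 (A20) at -4.14 (SE 0.41, adjusted p = 0.000628) and CYLD at -1.21 (adjusted p = 0.0108), 2 deubiquitinases. This count of 2 of 12 was at the 16.7% of all tested genes called lower. CYLD was at -0.96 without PEF8, so that 1 of the list was called lower there, against 5 without piPSC7. SOCS1 and SOCS3, inhibitors of JAK kinases, were at -1.0 and -1.06 (adjusted p = 0.167 and 0.126). SOCS1 was called without piPSC7 at -1.59 (adjusted p = 0.0188, up to 0.430 over the alternatives). SOCS3 was at -0.59 without PEF8, at -0.37 without both libraries of line 8 and at -1.46 without piPSC7 (adjusted p = 0.313, 0.525 and 0.0571).

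Taking the 9 genes as a set, 2 of the 8 tested genes were called, ISG15 and IRF1, both lower, where 36.8% of all tested genes were called in either direction, 16.7% lower and 20.2% higher. None of the 8 (0) was called higher. Without PEF8, 1 of 7 tested genes was called (IRF1), where 34.6% of all genes were called and 16% were called lower. In 4 of the 8 tested genes (IFIH1, MX2, ISG15 and IRF1) every PEF value was above every piPSC value, as in 26.8% of tested genes. MX2 was among the tested genes only through PEF8. Of the 7 tested genes that also passed the filter without PEF8 it was 3, beside 26.2% of the 12172 tested genes that did. Over the 8 tested genes the median log2 fold change was -1.57, and -0.63 for the 7 tested without PEF8, beside 0.20 and 0.25 for all tested genes.

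**Figure D3:**
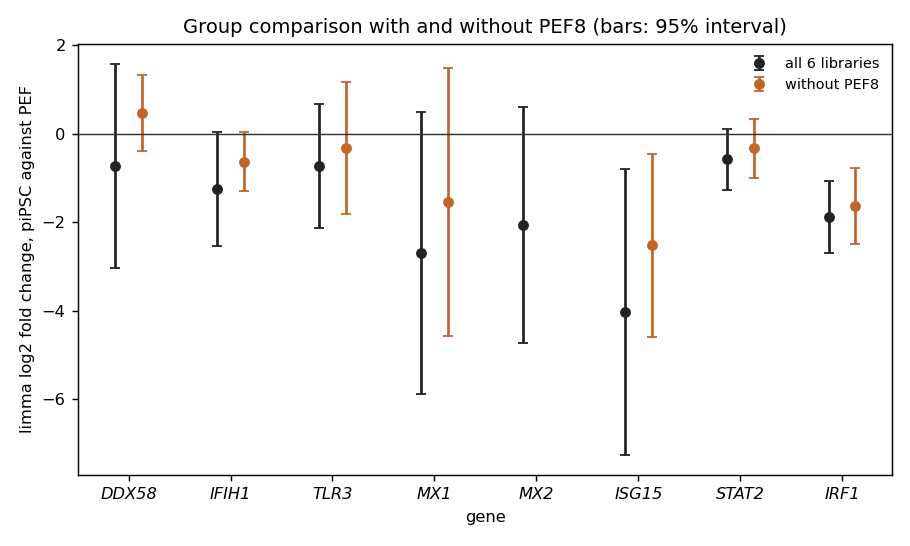
limma log2 fold change of piPSCs against PEFs for the 8 tested genes, with 95% intervals, over all 6 libraries (black) and without PEF8 (orange), on a linear log2 axis. Intervals for ISG15 and IRF1 lie below 0 in both fits, the value of DDX58 moves from -0.73 to 0.47, and MX2 has no value without PEF8.

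Line by line, line 8 had the lowest log2 ratio of (FPKM + 1) of piPSC over PEF for 7 of the 9 genes, whereas line 5 had the lowest for TLR3 (-1.24, against -0.48 in line 8) and IRF1 (-2.41, against -1.96). In line 8, 7 of the 8 tested genes were at least 2-fold lower in the piPSCs on the (FPKM + 1) scale, all but TLR3, where 23.8% of tested genes were. Leaving out MX2, which was tested only through PEF8, it was 6 of 7, where 22.6% of the tested genes that also passed the filter without PEF8 were. In line 5 it was 4 of 8 (TLR3, MX2, ISG15 and IRF1), where 18.6% of tested genes were, or 3 of 7 (18.7%) by the filter without PEF8, and in line 7 it was 1 of 8 (IRF1), where 17.2% of tested genes were. DDX58 went the other way in line 7, at 1.07 on the log2 scale, and was at -3.13 in line 8. With 1 library against 1, these ratios have no replicate check, and differences between lines were not tested.

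**Figure D4:**
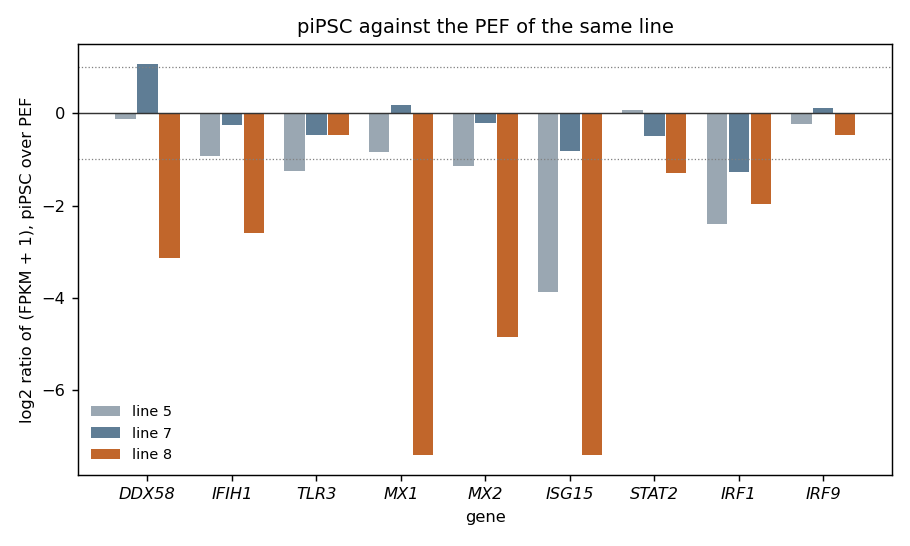
Log2 ratio of (FPKM + 1) in each piPSC line over the PEF of the same line for the 9 genes, with lines 5 and 7 in grey and blue and line 8 in orange, and dotted lines at a 2-fold change. The bars of line 8 reach -7.40 for MX1 and -7.39 for ISG15, and only IRF1 passes the lower dotted line in all 3 lines.

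The excess in PEF8 was set against the other PEFs as a description chosen after the values were seen. PEF8 was at least 2-fold above both other PEFs on the (FPKM + 1) scale for 6 of the 8 tested genes, all but STAT2 and IRF1, where 4.27% of tested genes were. Of the 6, MX2 was tested only through PEF8, and of the 7 that also passed the filter without PEF8 it was 5, beside 3.34% of the tested genes that did. PEF8 was 9.99 times PEF5 and 24.6 times PEF7 for DDX58, 7.19 and 17.3 times for MX1, 8.91 and 85.2 times for ISG15, and 22.4 and 178 times for MX2. Among the 32 tested effectors outside the 9 genes, 26 (81.2%) met this rule and all 32 were highest in PEF8 among the PEFs. The filter favoured this for 6 of them, RSAD2, HERC5, CMPK2, PARP14, DTX3L and ISG20, which passed it only through PEF8. Of the 26 others, 21 met the rule and all 26 were highest in PEF8, beside 3.34% and 35.6% of the tested genes that also passed without PEF8. For PEF5 and PEF7 the same rule as for PEF8 took 1.77% and 1.08% of tested genes. By list, the rule was met by 8 of 15 RNA sensors and partners (DDX58, IFIH1 and TLR3 among the 8), 1 of 4 DNA sensing genes, 2 of 12 negative regulators, 0 of 9 receptors and JAK-STAT genes and 0 of 6 kinases and regulatory factors. For lists this short, 0 is close to the 4.27% of all tested genes. The sensor DDX60 passed the filter only through PEF8, and of the 11 sensors and partners outside the 9 genes that passed it without PEF8, 4 met the rule, beside 3.34%. Of the 8 tested genes, 6 also ran in the order PEF8, PEF5, PEF7, all but TLR3 and STAT2, where 22.5% of tested genes did, and so did 30 of the 32 other effectors. Among tested genes that also passed the filter without PEF8 these counts were 5 of 7 and 25 of 26, beside 21.7%. In this order PEF5 was 2.41 times PEF7 for MX1 and 9.56 times for ISG15.

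Interferon genes themselves were close to the limit of detection. The 21 interferon genes in the table held 55, 34 and 41 fragments in PEF5, PEF7 and PEF8 and 13, 45 and 53 fragments in piPSC5, piPSC7 and piPSC8, or 3.08, 2.03 and 2.71 per 1000000 fragments in the PEFs and 0.864, 3.78 and 4.81 in the piPSCs. These are the smallest whole counts that fit the values. IFNE (8 fragments) and IFN-ALPHA-4 (1 fragment) were found in piPSC8 alone. They were fitted with lengths of 291 and 285 bases, shorter than their extents (chr1:201223599-201224180 and chr1:201616020-201616589). The piPSC8 sums given here may thus be too low. Without IFN-OMEGA-6, which held 27 of the fragments of PEF5, the sums were 28, 26 and 34 in PEF5, PEF7 and PEF8 and 8, 41 and 34 in piPSC5, piPSC7 and piPSC8. IFNB1, the type I interferon first made after RNA sensing, had 1 fragment in PEF8 and 0 in the other libraries. The next highest count of 1 gene was 22 fragments of IFN-OMEGA-4 in piPSC7. Many of these genes, such as those of the alpha, delta and omega groups, have close copies within their group, so the split of fragments among such copies is uncertain.

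Windows of 300 bases before the RefSeq mRNA starts on Sscrofa11.1 were searched for letters of the interferon-stimulated response element, ISRE (GAAANNGAAA, or TTTCNNTTTC on the other strand), and of the gamma-activated site, GAS (TTCNNNGAA, which reads the same on both strands). The motifs and the windows were chosen after the values were seen. At 1 or more of their starts, ISRE letters were found for 3 of the 9 genes (IFIH1, ISG15 and TLR3) and in 3.51% of 46001 windows of all genes, and GAS letters for 2 of the 9 (IRF1 and IRF9) and in 7.08% of windows. Several starts can belong to 1 gene, and over genes the shares were 6.09% and 11.01% of 19534. The starts matter, since windows before the gene starts of the deposited table held ISRE letters and GAS letters for ISG15 alone, beside 3.78% and 7.42% of 16998 windows. The table's gene for ISG15 starts 312 bases upstream of the RefSeq start, and its gene for MX1 starts downstream of it. The stretches of 30 bases around the matches are shown since they hold the matches found for the 9 genes before the RefSeq mRNA starts, with the matched letters in capitals, 5′ to 3′ on the gene's strand.
ISG15, chr6:63363060-63363089, plus strand, ISRE: gccttggGAAAAGGAAACCGAAActgaagc
ISG15, chr6:63363083-63363112, plus strand, ISRE: ctgaagccgaTTTCGATTTCggctcccgcg
IFIH1, chr15:68985284-68985313, minus strand, ISRE: attcgctTTTCCTTTTCTCTTTCccacggt
IFIH1, chr15:68985149-68985178, minus strand, ISRE: gaagagaatcGAAACAGAAAccgaagtcag
TLR3, chr15:46966201-46966230, plus strand, ISRE: ttaactttagTTTCACTTTCaagattgcag
IRF1, chr2:134783754-134783783, minus strand, GAS: acagcctgatTTCCCCGAAatgatgaggcg
IRF9, chr7:75139684-75139713, minus strand, GAS: accacgtgatTTCGGGGAAacggacctccc
The first match began 134 bases before the mRNA start for ISG15, 161 for IFIH1, 51 for TLR3, 127 for IRF1 and 62 for IRF9. For IFIH1 this is the start at chr15:68985145, and the window before its other start, at chr15:68984813, held 0 ISRE matches. For IRF1 it is the start at chr2:134783646, and the window before its other start, at chr2:134783335, held 0 GAS matches. By the table's own gene extents the stretches of ISG15, IFIH1, TLR3 and IRF1 lie inside the gene. A match is a description of the letters, and binding was not measured here.

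For each tested gene, the gene with the nearest pattern over the 6 libraries was found by Pearson r of log2(FPKM + 1) among 11411 tested genes with a symbol. IFIH1 was nearest to IFIT1 (r = 0.999), another interferon-stimulated gene, which was at 5.43, 1.204 and 172 FPKM in PEF5, PEF7 and PEF8. The nearest genes of the others were PDHX for DDX58 (r = 0.995), DNASE1L1 for TLR3 (0.967), FERMT3 for MX1 (0.994), SFTPA1 for MX2 (0.9997), LRRC10B for ISG15 (0.996), ITSN1 for STAT2 (0.996) and TSPAN14 for IRF1 (0.999). Of these 8, only IFIT1 is on a list used here. The r values describe 6 libraries of which PEF8 is often far from the rest, and some of these genes were low, such as FERMT3 at 0.834 FPKM in PEF8.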

How the data were processed

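FPKM values of 18007 genes, deposited by the authors for 3 PEF and 3 piPSC libraries, were used. The submitters' processing notes name HISAT2 2.1.0, HTSeq 0.6.0, Bowtie2 2.2.3 and the build Sscrofa11.1, with no roles given; poly-A libraries were paired-end, the share of piPSC fragments that came from mouse feeders is unknown here, and the treatment of strand is not given in the sources used here. Whole fragments were recovered for 18007 genes (tolerance 0.001), with the smallest gene length that gave whole counts in every library. Limma 3.58.1 in R 4.3.3 (trend, not robust, two-sided, Benjamini-Hochberg over all 12428 genes) compared the groups. The methods were tested on simulated data, and the outcome is not reported here. Python 3.11.15, numpy 2.4.6, pandas 2.3.3, scipy 1.17.1, pysam 0.24.0 and matplotlib 3.10.9 did the rest. Sequences and starts came from RefSeq on Sscrofa11.1, after windows before other starts had been tried.

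The members and lists were chosen with earlier results of these data known. Named genes were the 9 members, 15 genes of the pathway (another of the rule is not reported here), the 3 largest falls and rises called in each list, the nearest gene of each member and all interferon genes. RSAD2, CMPK2, HERC5, PARP14, DTX3L, ISG20, DDX60 and marker genes were named after their values were seen. PEF and piPSC lines of 1 number are paired, since each piPSC line came from that PEF line; their deviations correlated at 0.0921, 0.0946 and 0.08, against -0.121 to 0.0553 for other pairs. The main test was unpaired, the kind of test the study names for its statistics in general; for RNA-seq the study set each piPSC line against its own PEF line, and the line as a block stands for that pairing here. Alternatives were the block, a pseudocount of 0.1, other filters, quantile normalization, 2 rescalings, no trend, voom, and each library left out. Leaving out line 8, and the comparison of PEF8 with the other PEFs, were chosen after the values were seen.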

Additional observations from a re-analysis of the deposited data

How the results depend on the processing

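Of the 9 genes, the count called was 2, and it was 1 with the replicate block, with no filter on low values, with voom, and without both libraries of line 8. Leaving out 1 library gave between 1 and 3. The cause was not tested. The number of called genes overall was 4575, and between 4053 and 4644 without 1 library. The block gave 4485 called genes and, among the 30 named genes counted below, changed the calls of ISG15, DHX58 and TRIM25 only. All tested genes had a median log2 fold change of 0.20, and of -0.01 and -0.06 after scaling the libraries by a median of ratios or to equal sums, which gave 1879 higher and 2511 lower, and 1986 higher and 2815 lower, against 2505 higher and 2070 lower. Of 478 alternative values for 30 named genes, 434 kept direction and call, 24 lost the call, 10 gained it and 10 changed sign. Those of DDX58 were 0.47 without PEF8 and 0.48 without line 8, with -1.57 to 0.47 over fits without 1 library. Those of EIF2AK2 were 0.090 and 0.15, with -0.93 to 0.090. IFNAR1 was at -0.0022 and -0.055 after the rescalings, and from -0.014 (without PEF7) to 0.45 (without PEF8), and TBK1 at -0.12 and -0.18 after the rescalings and -0.049 without line 8. None of these passed the test. Counts called lower moved from 1 to 2 for DNA sensing without PEF7 and from 2 to 4 for kinases and regulatory factors with equal sums. MX2 had no value without PEF8 or line 8. IRF9, MX2 in piPSCs and the interferon genes had few fragments, which limits the precision of their values.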

Other observations

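Genes outside the pathway lists used here also stood apart in PEF8, as seen after ranking the 12428 tested genes by the excess of PEF8 over both other PEFs. Of the first 50 genes, 9 (18%) were on the pathway lists, which hold 0.652% of tested genes, and MX2, ISG15 and DDX58 ranked 18, 34 and 35. Of the 50, 13 passed the filter on low values only through PEF8, MX2 and CMPK2 among them. Ranking the 12172 of the tested genes that also passed it without PEF8 put 11 (22%) pathway genes among the first 50, where the lists held 0.60% of genes. The Y-linked genes TMSB4Y (112 FPKM in PEF8), DDX3Y (25.3 FPKM) and EIF1AY (11.7 FPKM) ranked 1, 4 and 19 and were at 0 in PEF5 and PEF7. The others included the homeobox genes HOXC6 (38.4 FPKM in PEF8, against 0.0792 in PEF5 and 0.507 in PEF7), HOXC8 (20.8, 0 and 0.198 FPKM) and EN1 (42.4, 0.830 and 1.61 FPKM), and the secreted proteins CCL5, which is itself known to be induced by viral RNA and interferon (114, 11.7 and 2.19 FPKM), CSF3 (267, 33.9 and 31.2 FPKM) and MMP3 (2336, 300.4 and 115 FPKM). SERPINB2 was at 664 FPKM in PEF8, 8.03 in PEF5 and 11.7 in PEF7. These genes were named after their values were seen. Whether they and the interferon-stimulated genes share a source was not tested.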
